A study of Mus musculus with 2 samples.

Results

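Insulin-like growth factor (IGF) binding proteins, the ligand Igf2 and the receptor Igf1r were followed across the cell classes of cultured mouse neural stem cells. The set holds 6 genes of the 28692 in the matrix (Igfbp2, Igfbp3, Igfbp4, Igfbp5, Igf2 and Igf1r), chosen by gene symbol, and all 6 were found and had at least 30 unique molecular identifiers (UMIs, each marking 1 captured transcript). The cells were neural stem cells of C57/Bl6J mice grown from the subventricular zone, a germinal layer along the lateral ventricles. The labels name 2 libraries. The treated library received the oxysterol 20HC at 1 µM, and the control received DMSO vehicle, per the series design; both were taken 3 days after EGF and FGF were withdrawn, so the controls shared the withdrawal. The protocol field of the control library also mentions 20HC, and its group was taken from its title. The sources used here give neither the age nor the number of the mice, nor any pooling.

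All barcodes lie in 1 pooled matrix and end in the number 1 or 2, which nothing ties to a library. No comparison of 20HC with control was therefore made, the matrix was treated as 1 sample, and no p-value was computed. The barcodes numbered 1 (barcode set 1, 10787) and 2 (set 2, 3898) are given side by side, and 48 barcode sequences occurred in both sets. After filtering, 13028 cells with a median of 2842 UMIs were kept. They fell into 12 clusters, of which 10 made up 8 classes named "X-like" from marker genes; 2 clusters stayed unnamed and are called by a leading gene, Lgals1-led (484 cells) and Car9-led (323). The 6 genes and the other IGF genes were left out of the genes used for clustering. A UMI of Nes or Sox2, genes of neural stem cells, was found in 51.0% of kept cells.

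IGF ligands are secreted peptides that act through the receptor tyrosine kinase Igf1r, which signals to growth and survival through the PI3 kinase and Akt pathway. Binding proteins hold the ligands outside the cell, lengthen their life and limit or deliver them to the receptor, and proteases free the ligand by cutting them. In the brain, Igf2 is known from the meninges and choroid plexus, and IGF signalling bears on neural stem cell growth and on oligodendrocyte formation.

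Igfbp2 and Igfbp5 are neighbours on mouse chromosome 1 (GRCm38, GENCODE M21 annotation), Igfbp2 at chr1:72824503-72852474 on the plus strand and Igfbp5 at chr1:72857932-72874884 on the minus strand, with their 3′ ends 5457 bases apart. Igfbp3 lies at chr11:7206086-7213923 on the minus strand and Igfbp4 at chr11:99041244-99054392 on the plus strand. Igf2 lies at chr7:142650766-142666816 on the minus strand, where it overlaps the annotated genes Gm49394 and Mir483 and the antisense transcript Igf2os, which had 4 UMIs in the matrix. Igf1r lies at chr7:67952827-68233668 on the plus strand. All 6 are protein coding. The sources used here do not give how counting treated strand and overlapping genes, so Igf2 counts cannot be told apart from reads of the overlapping genes.

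The promoters of the 4 binding proteins are shown because their levels differed between classes. Igfbp3 and Igfbp4 both had their highest level in fibroblast-like cells, and Igfbp2 had its highest in ependymal-like cells. Igfbp5 was spread over several classes. Its highest pooled level was also in fibroblast-like cells, with an interval that overlapped with that of ependymal-like cells. Each line holds the 100 bases before the RefSeq start (GRCm38.p6, the same assembly), 5′ to 3′ on the gene's strand, with matched motifs in capitals. The windows are chr11:7213924-7214023 (minus) for Igfbp3, chr11:99041144-99041243 (plus) for Igfbp4, chr1:72874866-72874965 (minus) for Igfbp5 and chr1:72824380-72824479 (plus) for the upstream of 2 Igfbp2 starts.
Igfbp3: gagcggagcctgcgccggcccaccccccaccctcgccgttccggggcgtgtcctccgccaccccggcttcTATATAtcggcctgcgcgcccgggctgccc
Igfbp4: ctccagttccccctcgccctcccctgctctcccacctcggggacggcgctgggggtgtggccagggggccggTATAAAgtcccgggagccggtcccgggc
Igfbp5: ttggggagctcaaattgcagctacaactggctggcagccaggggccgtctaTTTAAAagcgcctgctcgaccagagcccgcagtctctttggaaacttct
Igfbp2: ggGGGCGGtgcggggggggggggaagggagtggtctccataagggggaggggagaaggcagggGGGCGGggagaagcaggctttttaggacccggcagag

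The motifs searched, on both strands, were TATAAA (the core of the TATA box), the variant spelled TATATA, the variant spelled TTTAAA, the GC box spelled GGGCGG, and the hypoxia response core spelled ACGTG, and no matches overlapped in the 4 windows shown. Igfbp3 holds TATATA beginning 30 bases before the start, and Igfbp4 holds TATAAA beginning 28 bases before it. Of 32851 mouse promoters, 2.19% hold the first of these motifs and 5.56% hold the TATA box core in a window of this length. Igfbp5 holds TTTAAA 49 bases before the start (4.39% of promoters), and Igfbp2 holds GGGCGG at 98 and 37 bases before it (24.7%). For these genes the RefSeq start and the annotated gene differ. The annotated Igfbp5 gene reaches chr1:72874884, inside its window, and the Igfbp2 gene begins at chr1:72824503, beyond its window. Distances therefore depend on the start used. GC content was 77% for Igfbp3, 75% for Igfbp4, 71% for Igfbp2 and 55% for Igfbp5, beside a median of 55% over all promoters. A match describes the letters only.

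Over all kept cells Igfbp5 had 31314 UMIs and was found in 57.5% of cells. Igf1r had 1706 UMIs (11.8% of cells), Igfbp2 1544 (8.45%), Igfbp3 626 (2.56%), Igf2 490 (1.15%) and Igfbp4 445 (2.31%). Levels are given as CPM, the UMIs of a gene in parts of 1e+06 UMIs summed over the cells of a class, with exact Poisson 95% intervals that cover counting error only. The call of higher or lower needed 3 things: a CPM at least 1.5 times apart from all other kept cells pooled, the same within set 1 and within set 2, and a level of those cells beyond the interval of the class. Over the 48 pairs of gene and named class, 9 were called higher and 21 lower. A lower CPM in a class can be less RNA of the gene per cell or fewer cells with it, which the summed value does not separate.

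**Figure D1:**
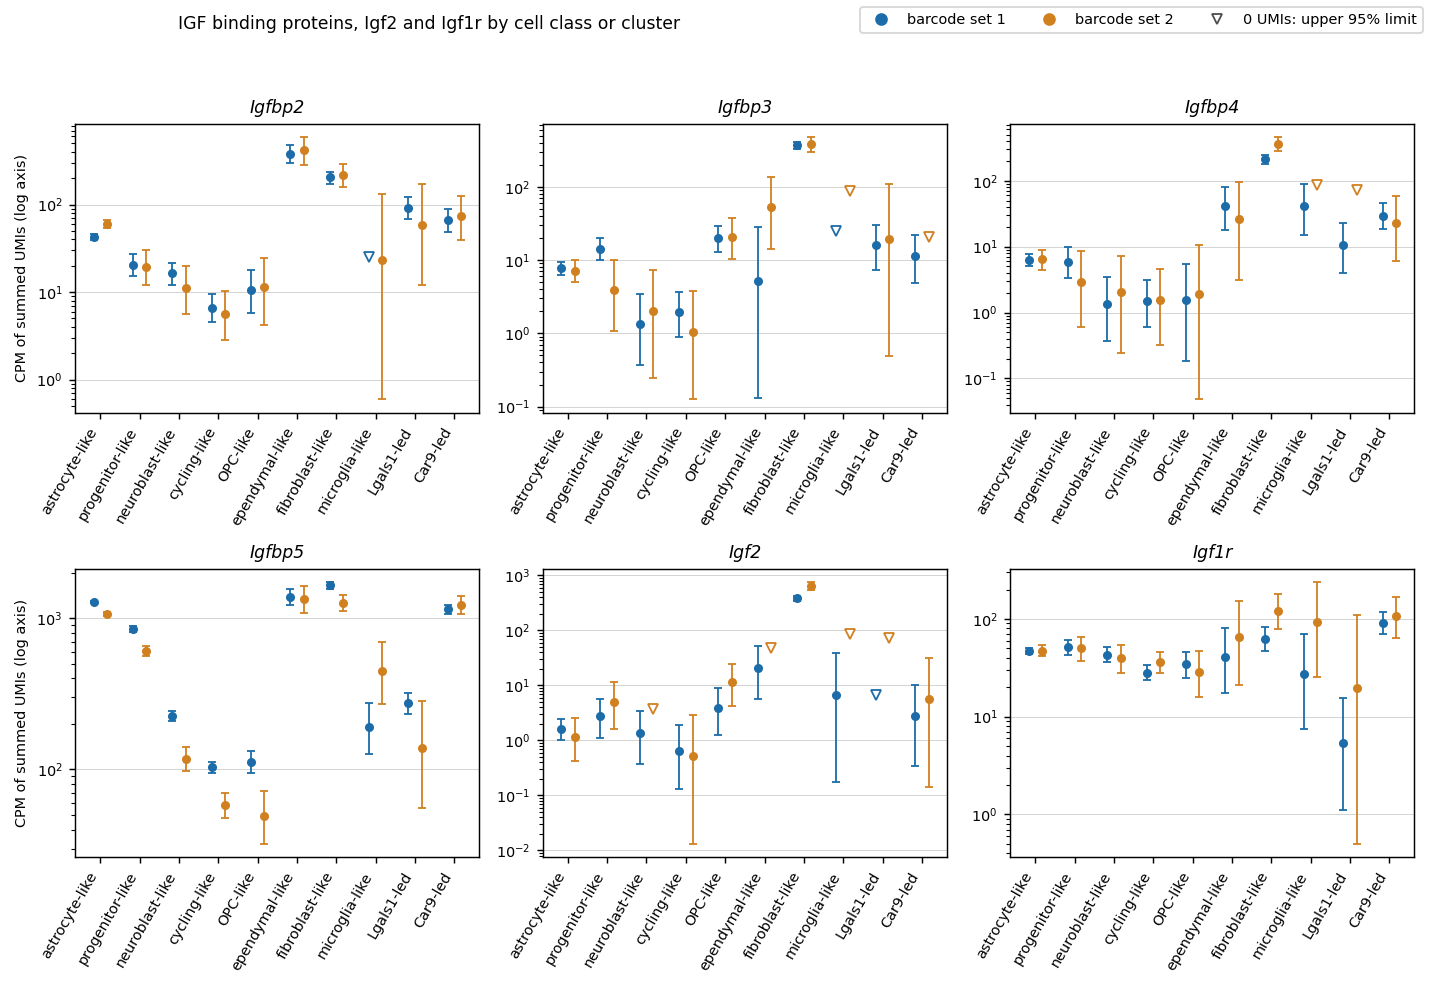
CPM of summed UMIs (log axis) of the 6 genes by cell class or unnamed cluster, with barcode set 1 in blue and set 2 in orange; bars are exact Poisson 95% intervals, and open triangles mark the upper limit where a set had 0 UMIs. Igf2, Igfbp3 and Igfbp4 peaked in fibroblast-like cells (433, 372 and 243 CPM), Igfbp2 in ependymal-like cells (393 CPM), and Igf1r spanned the narrowest range among the named classes.

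Fibroblast-like cells, 221 of 13028 kept cells (1.70%) with a median of 4211 UMIs, carried most of the UMIs of the ligand and of a pair of binding proteins. Of the 6 genes, 5 were called higher there, beside 10.1% of the 13037 measured genes, and none was called lower (15.7% of measured genes). The median log2 ratio of CPM + 5 over the other cells was 3.46 for the 6 genes, beside -0.18 for all measured genes. The class was led by collagen genes. All 8 fibroblast markers were raised at least 2 times (summed 9176 against 18.7 CPM in the other cells), and 6 of 8 pericyte or smooth muscle markers were raised too (7600 against 140 CPM).

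Igf2, the fetal growth ligand, had 433 CPM in fibroblast-like cells (interval 393 to 477), with 379 in set 1 and 645 in set 2, against 1.82 CPM in all other cells. This 238-fold difference left 86.1% of all Igf2 UMIs in the class, which held 2.54% of all UMIs. A UMI of Igf2 was found in 40.7% of fibroblast-like cells (median 4211 UMIs) and in 0.423% of astrocyte-like cells (median 3071). No other class came near that level. The next in order, ependymal-like (14.7 CPM from 4 UMIs), OPC-like (oligodendrocyte precursor-like, 5.98 CPM) and microglia-like (5.29 CPM from 1 UMI), could not be ordered, since their intervals overlapped.

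Igfbp3, the main carrier of IGFs in blood, had 372 CPM in fibroblast-like cells (334 to 412), almost alike in set 1 (369) and set 2 (381), against 7.07 CPM in the other cells, a 52.6-fold difference. Fibroblast-like cells held 57.8% of its UMIs. OPC-like cells came next at 20.1 CPM (14.2 to 27.7; 19.8 in set 1 and 20.8 in set 2) against 16.1 CPM in their other cells, and were called neither way. Most of that comparison level lay in fibroblast-like cells: against the remaining cells (6.39 CPM) OPC-like cells were called higher, and the call also changed after thinning and with means over cells. Their interval overlapped with that of ependymal-like cells (18.4 CPM from 5 UMIs). In 6.34% of OPC-like cells an Igfbp3 UMI was found, against 0.549% of cycling-like cells at a similar median depth (3276 and 3169 UMIs). In microglia-like cells it was found in 0 of 36 cells, at a depth that allows 15.9 CPM.

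Igfbp4, which mostly restrains IGF action and is cut by the protease Pappa, had 243 CPM in fibroblast-like cells (213 to 276; 212 in set 1 and 366 in set 2), against 5.57 CPM in the other cells. The class held 53.3% of its UMIs, a 43.7-fold difference. Ependymal-like cells had 36.8 CPM from 10 UMIs and microglia-like cells 31.7 CPM from 6, with intervals that overlapped. Igfbp4 was low in neuroblast-like (1.52 CPM), cycling-like (1.52) and OPC-like cells (1.63 CPM, from 3 UMIs).

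**Figure D2:**
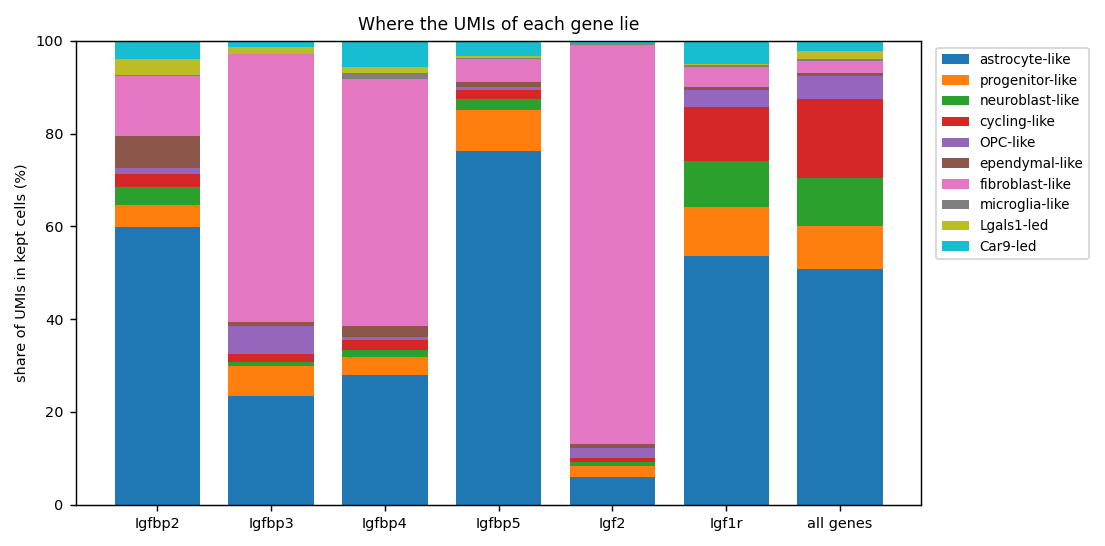
Share (%) of the UMIs of each gene that lay in each cell class or unnamed cluster, beside the share of all UMIs (last bar). Fibroblast-like cells held 86.1% of Igf2, 57.8% of Igfbp3 and 53.3% of Igfbp4 UMIs but 2.54% of all UMIs, and astrocyte-like cells held 76.2% of Igfbp5 UMIs and 50.8% of all UMIs.

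The fibroblast-like class was not uniform in these genes. When its 221 cells were clustered again without the 6 genes, a step chosen after the data had been seen, it split into 5 sub-clusters of 25 to 79 cells. In the comparisons within the class, each sub-cluster was set against the other fibroblast-like cells, and 4112 genes were measured.

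The Spp1-led sub-cluster (79 cells) was led by Spp1, Gjb2, Nppc and Lum. Igfbp3 reached 650 CPM there (573 in set 1 and 978 in set 2), against 224 CPM in the other fibroblast-like cells, and was found in 75.9% of its cells. Igfbp4 had 404 CPM against 158, and Igfbp5 2370 CPM against 1147. These 3 were called higher (3.87% of measured genes were). Igfbp2 (65.3 against 282 CPM) and Igf1r (35.6 against 95.7 CPM) were called lower, beside 10.4% of measured genes. Igf2 differed between the sets (173 CPM in set 1 and 575 in set 2) and was called neither way. The binding protein Igfbp6 was also higher here (291 CPM against 92.6).

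The Actg2-led sub-cluster (38 cells, median 4301.5 UMIs) was led by Actg2, Acta2, Myl9 and Tagln, genes of contractile smooth muscle. Of the pericyte or smooth muscle markers, 6 of 8 were raised and none was at 0 (summed 34390 against 1808 CPM). It had 0 UMIs of Igfbp3 against 452 CPM in the other fibroblast-like cells, at least 26.1-fold lower when the 0 is taken as 3 counts. Igfbp5 had 3 UMIs (17.3 CPM, 3.57 to 50.6) against 1905 CPM, and Igfbp4 had 1 UMI (5.77 CPM, 0.146 to 32.2) against 295 CPM. These 3 were called lower, as were 11.4% of measured genes. The same cells had 508 CPM of Igfbp2 (553 in set 1 and 404 in set 2) against 142 CPM, and 196 CPM of Igf1r (173 in set 1 and 250.2 in set 2) against 48.7 CPM. Both were called higher (8.34% of measured genes). Igf2 did not separate these cells, at 479 CPM against 423. Igfbp7, a related protein that binds IGFs weakly, was 7.16-fold higher here (456 against 63.7 CPM).

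The Ptgds-led sub-cluster (32 cells, median 3189.5 UMIs) was led by Ptgds, Vamp5, Slc6a13 and Apod. It had the highest Igf2 level of the 5, at 1441 CPM (1229 to 1678; 1337 in set 1 and 1698 in set 2) against 299 CPM in the other fibroblast-like cells. Igf2 was the only one of the 6 called higher (3.77% of measured genes), and a UMI of it was found in 84.4% of these cells. Igfbp3 was called lower, at 52.4 CPM from 6 UMIs against 414 CPM, beside 4.72% of measured genes. Igfbp4 (201 CPM) and Igfbp5 (1528 CPM) were within 1.5 times of the other cells (249 and 1575 CPM). With 10 components in place of 15 the matching sub-cluster had 833 CPM of Igf2, 236 of Igfbp3, 690.2 of Igfbp5 and 149 of Igfbp2 (297 with 15), so these levels depend on how the class was split.

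In the mitotic Ube2c-led sub-cluster (47 cells) Igf2 was called lower, at 127 CPM against 526 (6.3% of measured genes were lower and 6.71% higher). In the Mt3-led sub-cluster (25 cells) none of the 6 was called either way (6.79% of measured genes were higher and 6.83% lower). That sub-cluster had 6 of 12 astrocyte markers raised (summed 4367 against 908 CPM; S100b was at 0) and a median of 4808 UMIs; the part of mixed droplets was not tested. Without it the class had 424 CPM of Igf2, 376 of Igfbp3, 249 of Igfbp4, 204 of Igfbp2 and 1502 of Igfbp5, and the 5 calls were kept.

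**Figure D3:**
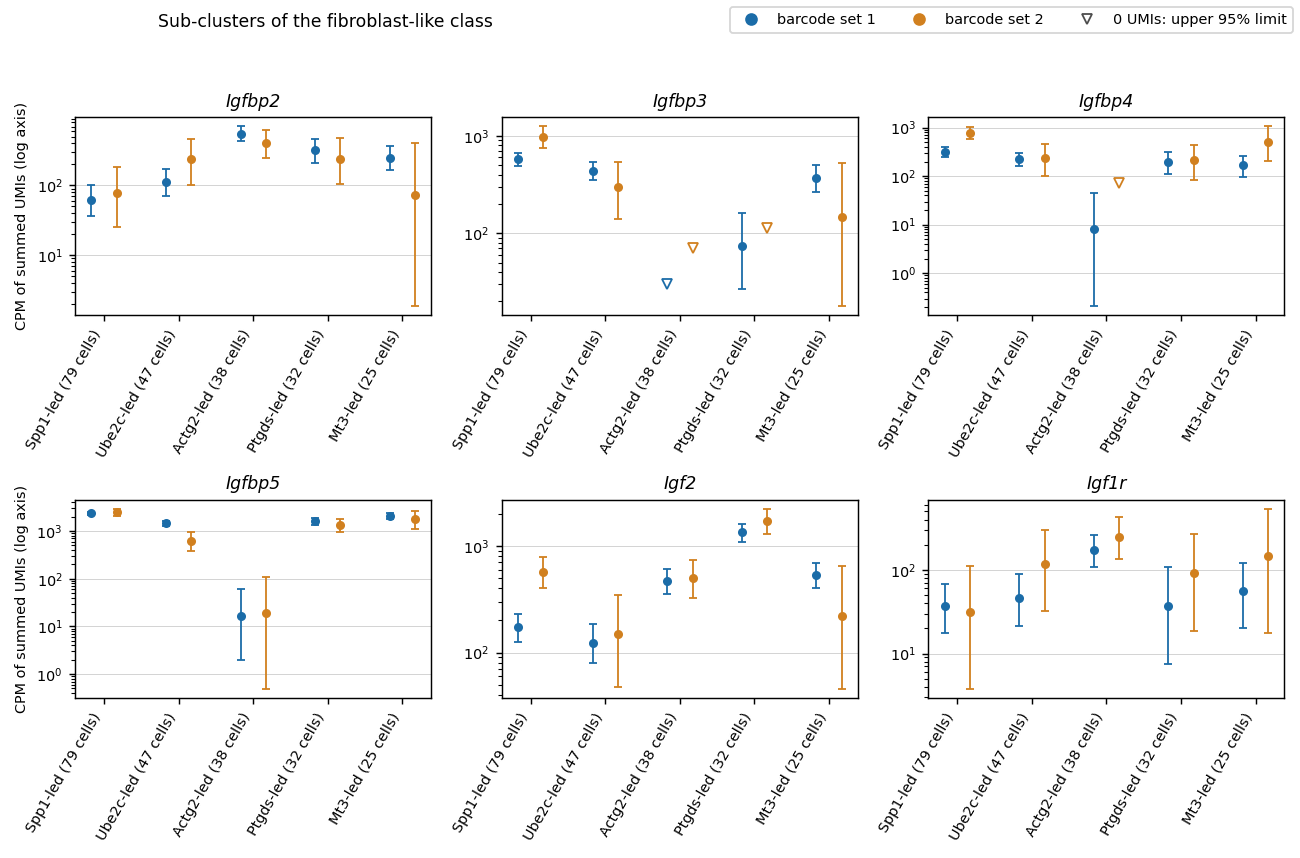
CPM of summed UMIs (log axis) of the 6 genes in the 5 sub-clusters of the fibroblast-like class, with barcode set 1 in blue and set 2 in orange; bars are exact Poisson 95% intervals and open triangles upper limits at 0 UMIs. The Actg2-led cells had 0 UMIs of Igfbp3 and 3 of Igfbp5 in both sets together, and the Ptgds-led cells had 1337 and 1698 CPM of Igf2.

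Cell by cell, 2 or 3 of the 6 genes were most often found together in fibroblast-like cells (66 and 71 cells), all 6 in 2 cells and none in 6. An Igfbp4 UMI was found in 73.6% of the 106 cells with an Igfbp3 UMI and in 26.1% of the 115 without. After every cell was thinned to 1500 UMIs these shares were 37.9% and 23.1%. Igf1r and Igfbp5 tended apart. Igfbp5 was found in 46.9% of the 49 cells with an Igf1r UMI against 81.4% of the 172 without, and in 29.4% of 17 against 63.3% of the others after thinning. The Actg2-led sub-cluster weighs on the shares of both pairs of genes. Of its 38 cells 0 had an Igfbp3 UMI and 1 an Igfbp4 UMI, while 19 had an Igf1r UMI and 3 an Igfbp5 UMI. The shares without that sub-cluster were not computed.

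Igfbp5, the most conserved of the binding proteins, had 76.2% of its UMIs in astrocyte-like cells, which held 50.8% of all UMIs. Its level there was below that of fibroblast-like cells and overlapped with those of ependymal-like and Car9-led cells. Astrocyte-like cells, 6152 cells or 47.2% of those kept, had 1225 CPM (1209 to 1240; 1282 in set 1 and 1066 in set 2) against 395 CPM in all other cells, a 3.10-fold difference. Igfbp5 was the only one of the 6 called higher in this class, in which 29.4% of measured genes were. Igfbp3 (7.55 against 25.4 CPM), Igfbp4 (6.37 against 17.0) and Igf2 (1.49 against 24.4) were called lower, beside 16.4% of measured genes. Those 3 comparisons rest on the fibroblast-like cells among the others: without these, the other cells had 6.54 CPM of Igfbp3 and 4.70 of Igfbp4, and none of the 3 genes was called lower. The Igfbp5 call was lost when each barcode set was clustered alone.

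The astrocyte-like class is made of a Gfap-led cluster (2341 cells) and a Pcp4-led cluster (3811 cells), whose astrocyte name rests on 1 marker, Agt, among its 10 leading genes. Gfap encodes the intermediate filament of astrocytes. The Gfap-led cells had 1823 CPM of Igfbp5 (1928 in set 1 and 1531 in set 2) against 579 CPM in all other cells, and were called higher (9.58% of measured genes). Igfbp5 was among the 10 leading genes of this cluster although it took no part in the clustering. The Pcp4-led cells had 864 CPM (892 and 788) against 795 CPM and were called neither way (19.3% of measured genes were higher). Igfbp3, Igfbp4 and Igf2 were called lower in the Gfap-led (13% of measured genes) and the Pcp4-led cluster (13.5%). With the fibroblast-like cells out of the comparison, Gfap-led cells were called lower in Igfbp3 but not in Igfbp4 (5.60 against 5.56 CPM) or Igf2 (2.46 against 1.66). In the same comparison Pcp4-led cells were called lower in Igf2, neither way in Igfbp4 (6.83 against 4.96 CPM) and higher in Igfbp3 (9.71 against 5.79 CPM). After thinning to 1500 UMIs, 19.4% of Gfap-led cells held 5 or more Igfbp5 UMIs against 5.05% of Pcp4-led cells, with means of 2.71 ± 2.47 and 1.32 ± 1.62 UMIs per cell (SD over 2205 and 3660 cells of 1 sample).

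Fibroblast-like (1569 CPM, 1492 to 1650) and ependymal-like cells (1368 CPM, 1232 to 1514) also carried Igfbp5 above their other cells (797 and 813 CPM). Over the order of classes, the intervals of fibroblast-like and ependymal-like cells overlapped, as did those of ependymal-like and astrocyte-like and of astrocyte-like and Car9-led cells (1160 CPM). Progenitor-like cells followed at 780 CPM and stood apart from both neighbours. Lgals1-led (264 CPM) and microglia-like cells (249 CPM) came next with overlapping intervals. The lowest levels were those of neuroblast-like (199 CPM), OPC-like (94.6 CPM) and cycling-like cells (89.8 CPM), of which the last pair overlapped, as did the intervals of microglia-like and neuroblast-like cells, whose order differed between the sets. Cycling-like cells were 10.8-fold below the other cells (967 CPM).

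In these 3 low classes set 1 lay above set 2: 226 and 117 CPM in neuroblast-like, 113 and 49.3 in OPC-like, and 103 and 57.9 in cycling-like cells. The summed level of the 12 astrocyte markers moved the same way, with 1327 CPM in set 1 and 719 in set 2 in neuroblast-like cells, 1459 and 623 in OPC-like cells, and 946 and 575 in cycling-like cells. Gjb6 was at 0 in OPC-like cells, and no other astrocyte marker was at 0 in the 3 classes. The part of free RNA from other cells in these low Igfbp5 levels was not tested. In the thinned cells 90.0% of cycling-like and 90.7% of OPC-like cells had 0 Igfbp5 UMIs, against 17.1% of Gfap-led astrocyte-like cells, and 80.0% of the 35 thinned microglia-like cells, a lineage apart from the neural ones, were at 0. Microglia-like cells went the other way between the sets, with 191 CPM in set 1 (28 UMIs) and 446 in set 2 (19 UMIs), and their intervals overlapped.

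**Figure D4:**
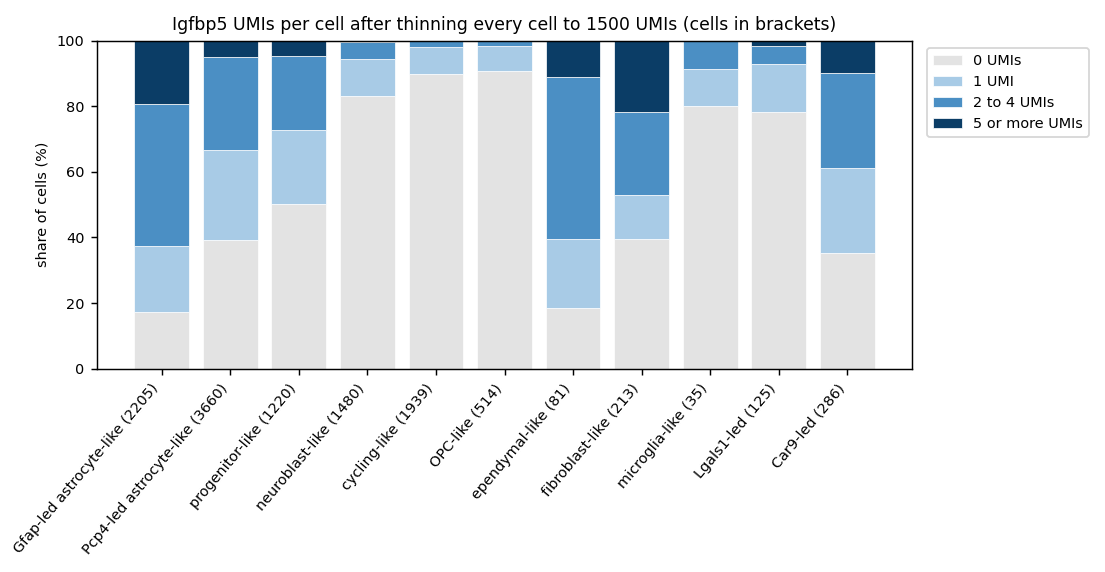
Share of cells (%) with 0, 1, 2 to 4, or 5 or more Igfbp5 UMIs after every cell was thinned to 1500 UMIs, by class, with the astrocyte-like class split into its clusters and the number of cells in brackets. Of Gfap-led astrocyte-like cells 17.1% had 0 UMIs, against 90.0% of cycling-like and 90.7% of OPC-like cells.

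Igfbp2, a binding protein abundant in fetal brain and cerebrospinal fluid, had its highest level in ependymal-like cells, the ciliated lining of the ventricles. The 96 cells had 393 CPM (322 to 475; 383 in set 1 and 419 in set 2) against 37.7 CPM in all other cells, a 10.4-fold difference, and 47.9% of them had an Igfbp2 UMI. It was among the 10 leading genes of the cluster although it took no part in the clustering. All 9 ependymal markers were raised in these cells. Igfbp4 (36.8 against 11.4 CPM) and Igfbp5 were called higher there as well, 3 of the 6 genes beside 10.5% of measured genes, with 0 of the 6 lower (5.09%), but the Igfbp4 call rests on 10 UMIs. The Igfbp4 call was kept in 13 of 19 alternative settings and the Igfbp5 call in 15 of 19.

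Fibroblast-like cells were second for Igfbp2 at 207 CPM (180 to 238; 205 in set 1 and 218 in set 2), 5.77-fold above the other cells, and their interval did not overlap with the ependymal-like one. Astrocyte-like cells held 59.9% of all Igfbp2 UMIs at 47.5 CPM (42.9 in set 1 and 60.2 in set 2) against 32.8 CPM, and were called neither way. They were called higher against cells other than fibroblast-like ones (23.3 CPM). In this class 84.5% of the 696 cells with an Igfbp2 UMI and 83.8% of those without had an Igfbp5 UMI. Progenitor-like (20.3 CPM), neuroblast-like (15.2), OPC-like (10.9) and cycling-like cells (6.38) lay low, with overlapping intervals between each and the next.

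Cycling-like and neuroblast-like cells were each called lower in 5 of the 6 genes, all but Igf1r, where 39.1% and 30.1% of measured genes were lower. No gene of the 6 was called higher in either class (12.5% and 9.32% of measured genes were). OPC-like cells were lower in Igfbp2, Igfbp4 and Igfbp5 (15.3%), progenitor-like cells in Igfbp2, Igfbp4 and Igf2 (9.07%), and microglia-like cells in Igfbp2 and Igfbp5 (13.2%). None of the 6 was called higher in OPC-like (6.07% of measured genes), progenitor-like (1.92%) or microglia-like cells (4.8%). Against comparison cells without the fibroblast-like class, Igf2 was no longer lower in neuroblast-like cells, Igfbp4 no longer in progenitor-like cells, and Igf2 in progenitor-like cells turned to higher (3.38 against 1.66 CPM). In that comparison OPC-like cells were called higher in Igfbp3 (20.1 against 6.39 CPM) and Igf2 (5.98 against 1.60 CPM, from 11 UMIs), and astrocyte-like cells in Igfbp2 (47.5 against 23.3 CPM). Against all other kept cells, fibroblast-like ones included, the median log2 ratio of the 6 genes was -1.86 for the cycling-like class, beside -0.25 for all measured genes. It was -1.56 for the neuroblast-like class, beside -0.19. Without the fibroblast-like cells, cycling-like ratios went from -1.87 to -0.99 for Igfbp3, -1.52 to -0.81 for Igfbp4 and -1.86 to -0.34 for Igf2 (4 UMIs). Those of Igfbp2 (-2.20 to -2.05), Igfbp5 (-3.36 to -3.33) and Igf1r (-0.56 to -0.54) moved less. Neuroblast-like ratios became -0.97 for Igfbp3, -0.76 for Igfbp4 and -0.20 for Igf2. The 2 neuroblast markers among the 10 leading genes of the neuroblast-like cluster, Tubb3 and Dlx1, stood beside 2 cell cycle genes, Hells and Mcm3. Of the 12 neuroblast markers, 11 were raised at least 2 times in cycling-like cells (summed 1965 against 673 CPM). In neuroblast-like cells 10 were (2715 against 685 CPM), so the 2 classes share these markers.

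Igf1r, the receptor, was spread most evenly. It had 50.8 CPM in progenitor-like, 47.8 in ependymal-like, 47.0 in astrocyte-like, 42.3 in microglia-like, 42.2 in neuroblast-like, 32.6 in OPC-like and 30.6 CPM in cycling-like cells, and each overlapped with the next. Fibroblast-like cells had 74.9 CPM (63.0 in set 1 and 122 in set 2) against 43.7 CPM and were called neither way, because set 1 fell short of 1.5-fold. Cycling-like cells (26.5 to 35.1 CPM) had an interval below that of progenitor-like cells (43.6 to 58.7). They were 1.55-fold below their other cells (47.4 CPM) but fell short of 1.5-fold in set 2 (36.2 against 48.8 CPM). None of the 8 named classes was called for Igf1r, and that of cycling-like cells was kept in 15 of 19 alternative settings. The Cdc20-led cluster of the cycling-like class (877 cells) was called lower, at 26.7 against 45.9 CPM, as it was for all 6 genes. The share of measured genes called lower was not computed for this cluster and was 39.1% in the cycling-like class. Its log2 ratio for Igf1r was -0.68, beside a median of -0.23 for all measured genes. A UMI of Igf1r was found in 13.3% of astrocyte-like and 10.6% of OPC-like cells.

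Among the classes and unnamed clusters, Igf1r had its highest pooled level in the Car9-led cluster, at 94.8 CPM (75.6 to 117; 91.7 in set 1 and 107 in set 2) against 43.3 CPM, a 2.19-fold difference. Its interval overlapped with that of fibroblast-like cells (58.7 to 94.2 CPM), which were above it in set 2, and the Actg2-led fibroblast-like sub-cluster reached 196 CPM. Igfbp2 (67.7 against 39.6 CPM) and Igfbp4 (28.2 against 11.2 CPM) were called higher there too, 3 of the 6 beside 4.23% of measured genes, and Igf2 was called lower from 3 UMIs (5.77% of genes). That Igf2 call rests on the fibroblast-like cells: without them Car9-led cells had 3.39 CPM against 1.78 and were called neither way. All 10 genes of a low-oxygen list were raised in this cluster, with a summed 3436 CPM (3351 in set 1 and 3778 in set 2) against 590.3 CPM, and none was at 0. The part of low oxygen in the Igf1r level was not tested. The Lgals1-led cluster, shallow at a median of 1096 UMIs with 451 of its 484 cells in set 1, was called lower for Igf1r (6.52 CPM from 4 UMIs), Igfbp5 and Igf2 (0 UMIs, which allows 4.89 CPM), beside 26.8% of measured genes, and for none higher (1.84%). Without the fibroblast-like cells the others had 1.85 CPM of Igf2, under the level that 0 UMIs allows, so no lower Igf2 was detectable at this depth, and Igfbp3 was then called higher there (16.3 against 6.91 CPM, from 10 UMIs).

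Between the barcode sets over all kept cells, none of the 6 genes was called, beside 4.24% of measured genes higher and 1.89% lower in set 1. Igfbp5 had 864 CPM in set 1 and 685 in set 2, and Igfbp3 17.4 and 13.4. Igfbp2 had 38.8 and 44.3, Igfbp4 11.5 and 11.8, Igf2 12.2 and 14.3, and Igf1r 43.8 and 46.4 CPM. In progenitor-like cells Igfbp3 was higher in set 1 (14.3 CPM, and 3.92 in set 2 from 4 UMIs). The 40 Igfbp3 UMIs of this class lay in 28 cells, with 9 of them in 1 cell. Within fibroblast-like cells, Igf2, Igfbp4 and Igf1r were lower in set 1 at the values given above, and the summed pericyte or smooth muscle markers were also lower there (6789 CPM in set 1 and 10802 in set 2). The shares of measured genes called between the sets within progenitor-like or fibroblast-like cells were not computed. The Spp1-led sub-cluster held 61 of the 171 fibroblast-like cells of set 1 and 18 of the 50 of set 2. Within it Igfbp4 had 316 CPM in set 1 (253 to 390) and 776 in set 2 (576 to 1024), and Igf2 173 and 575 CPM, while the intervals of the sets overlapped for both genes in each of the other 4 sub-clusters and for Igf1r in all 5.

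The rest of the IGF pathway was read from a list of 36 genes, of which 29 were measured. In fibroblast-like cells 11 were called higher (Igf1, Igf2r, Igfbp6, Igfbp7, Htra1, Stc2, Irs1, Shc1, Grb10, Igf2bp2 and H19) and 1 lower (Igfbpl1), beside 10.1% and 15.7% of measured genes, with a median log2 ratio of 0.25 beside -0.18 for all measured genes. Igfbp6, which prefers Igf2 as its ligand, had 161 CPM there against 3.56, and H19, the imprinted noncoding RNA next to Igf2, had 974 against 123 CPM. In astrocyte-like cells 7 were higher (Igfbpl1, Htra1, Irs1, Irs2, Irs4, Foxo1 and Foxo3) and 5 lower (Igf1, Stc1, Stc2, Grb10 and Igf2bp3) of the 29, near the 29.4% and 16.4% of all measured genes. Cycling-like cells had 2 higher (Stc1 and Grb10) and 16 lower, namely Igf1, Igf2r, Insr, Igfbp6, Igfbp7, Igfbpl1, Htra1, Stc2, Irs1, Irs2, Irs4, Grb14, Pik3r1, Foxo1, Foxo3 and H19, where 12.5% of measured genes were higher and 39.1% lower.

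Neuroblast-like cells had 1 higher (Grb10, an adaptor that dampens receptor signalling) and 9 lower (Igf1, Igfbp6, Igfbp7, Igfbpl1, Htra1, Irs1, Foxo1, Foxo3 and H19), beside 9.32% and 30.1% of measured genes. In OPC-like cells Pik3r1, Igf2bp2, Igf2bp3 and H19 were higher, and Igf1, Igf2r, Igfbp6, Igfbpl1, Htra1, Stc1, Shc1, Grb10 and Foxo1 were lower, beside 6.07% and 15.3% of measured genes. OPC-like cells thus had 485 CPM of H19 while Igf2, its neighbour, had 5.98 CPM. The Igf2 call in this class, neither way, was kept in 7 of 17 alternative settings, with log2 ratios from -1.52 to 0.73. Progenitor-like cells had 0 higher and 3 lower (Igf1, Igfbp6 and Igfbp7), beside 1.92% and 9.07% of measured genes. The other ligand, Igf1, was highest in microglia-like cells (1248 against 4.12 CPM) and had 88.3 CPM in fibroblast-like cells. These levels weigh on the list calls. With the fibroblast-like and microglia-like cells out of the comparison, Igf1 was no longer called lower in astrocyte-like, progenitor-like (3.10 against 1.78 CPM), neuroblast-like, cycling-like or OPC-like cells. In that comparison Igfbp6 was no longer called lower in progenitor-like or neuroblast-like cells, nor was Igfbp7 in progenitor-like cells. In astrocyte-like cells Igfbp6 and Igfbp7 were then called higher, and Stc2 was no longer called lower. No other list gene changed its call in these classes.

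Among the list genes with the most UMIs were H19 (5538), the adaptor Grb2 (2250), the protease Htra1 (1920), the kinases Akt1 (1868) and Akt2 (1620), the PI3 kinase subunits Pik3r1 (1808) and Pik3r2 (1376), and Igfbpl1 (1309). Htra1, which cuts Igfbp5, had 74.1 CPM in Gfap-led and 74.2 in Pcp4-led astrocyte-like cells, 118 in Car9-led and 130.4 in fibroblast-like cells, and 4.41 CPM in cycling-like cells. In the Car9-led cluster Igf2r, Igfbp7, Htra1, Stc1 and Stc2 were higher and none was lower, beside 4.23% and 5.77% of measured genes, and in the Lgals1-led cluster 14 were lower, beside 26.8%. Igfbp1 and Igfals had 0 UMIs in the kept cells.

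**Figure D5:**
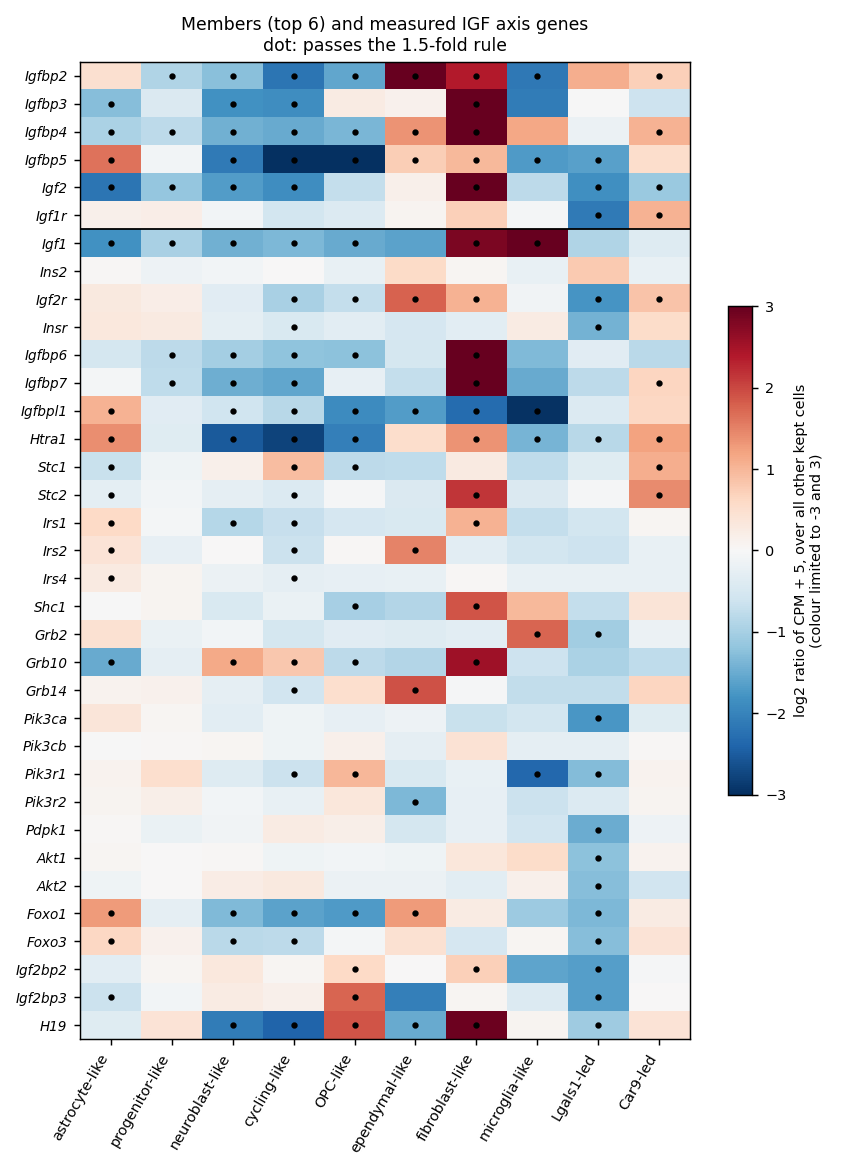
Log2 ratios of CPM + 5 over all other kept cells for the 6 genes (top rows) and the 29 measured genes of the IGF list, by class or unnamed cluster, with colour limited to -3 and 3; dots mark genes that passed the 1.5-fold rule. Fibroblast-like cells have 5 dots among the 6 genes and 12 in the list, while progenitor-like cells have 3 in each.

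The genes whose levels over the 12 clusters were most like each of the 6 were ranked by Pearson's r of log2(CPM + 5) among about 7230 genes; the clusters share libraries, so r is a description. Igf2 was most like the basement membrane collagen Col4a2 (0.970), Cthrc1, Itm2a, Serpinf1 and Col4a1. Igfbp3 was most like the actin-binding genes Cald1 (0.966) and Tpm1, then Plscr3, Itm2a and Akap12, and Igfbp4 like Selm (0.960), Col6a1, Rbms1, Wls and Col1a2. Most UMIs of Igf2, Igfbp3 and Igfbp4 lay in the fibroblast-like cluster, so these r values lean on its level. Within that cluster, Tpm1 was among the 10 leading genes of the Actg2-led sub-cluster, which had 0 UMIs of Igfbp3. Igfbp2 followed Rarres2 (0.961), an ependymal marker, with Tm4sf1, Dkk3, Snap47 and S100a6. Igfbp5 followed Oaf (0.962), Agtrap, Apba3, the protease Htra1 (0.952) and Sparcl1. Igf1r was most like Arcn1 (0.949), Pdcd6ip, Golga4, Nrip1 and Adam10.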

How the data were processed

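Per the labels' protocols, single-cell RNA-seq used version 1 of the Chromium 3′ chemistry of 10x Genomics; reads were processed with Cell Ranger 2.1.1 and mm10, per the submitters' processing notes. The deposited values are whole UMI counts of 28692 genes in 14685 barcodes (set 1 30517055 and set 2 10945271 UMIs). Barcodes under 500 genes or over 10% mitochondrial UMIs were left out (1407), as were doublets called with Scrublet (scanpy 1.11.5) within each set: 239 of 9869 and 11 of 3409, against 7.90% and 2.73% expected, so doublets may remain.

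Counts scaled to 10000 per cell and log transformed gave 2000 variable genes, 30 components, 15 neighbours and, with leidenalg 0.10.2, clusters at resolution 0.5. A class name needed 3 markers raised 2 times and no more foreign than own markers among the 10 leading genes, from 14 lists. The neuroblast-like and Pcp4-led names rest on ties. Genes needed 30 UMIs to be measured; log2 ratios used CPM + 5; shares carry counting error only. The size rule was tried on simulated counts with counting error only. These held no spread between cells and no clustering, so they do not show its behaviour on real classes. The 6 genes, lists and rules were chosen with earlier results of these data known; the lists of named genes follow a rule (members, pathway genes with most UMIs or called in larger classes, 5 like genes), and examples with values outside it were chosen after seeing them. Some pathway genes are not reported here. Sub-clusters used 1000 variable genes and 15 components.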

Additional observations from a re-analysis of the deposited data

Results flagged for a closer look

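Barcodes with more than 10% mitochondrial UMIs (912, median 1260 UMIs) were used in no comparison, and each of the 6 genes had a level there above what a count of 0 allows. Igfbp5 had 1525 CPM in these barcodes against 817 in kept cells, Igfbp2 70.8 against 40.3, and Igf1r 68.2 against 44.5. Igfbp3 (7.01 against 16.3), Igfbp4 (7.65 against 11.6) and Igf2 (3.19 against 12.8) were below the kept cells. The part of damaged cells or of their cell type in these values was not tested.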

How the results depend on the processing

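Over the alternatives tried (cell filter, doublets, clustering, thinning, cell means, comparison cells, added CPM, fold condition, single sets, and the 5 highest cells left out), 7 to 11 pairs were called higher and 15 to 24 lower. These counts are not all over the same pairs, since some settings lacked a class, and like counts can hold different pairs. Fibroblast-like Igf2, Igfbp2, Igfbp3 and Igfbp4 and ependymal-like Igfbp2 stayed higher in all 19 settings that gave each a value; fibroblast-like Igfbp5 was lost at a fold condition of 2. Ependymal-like Igfbp4 was called in 13 of 19 settings, ependymal-like Igfbp5 in 15, and astrocyte-like Igfbp5 in 17 of 18, lost with each barcode set clustered alone. With the fibroblast-like class removed from the comparison cells, an alternative added after seeing the data, 3 called directions turned: the log2 ratio became 0.33 for Igf2 in progenitor-like cells (3.38 against 1.66 CPM, then called higher), 0.12 for Igfbp3 and 0.23 for Igfbp4 in astrocyte-like cells. So did 5 in clusters, to 0.31 for Igf2 in Car9-led cells, 0.00502 for Igfbp4 and 0.16 for Igf2 in Gfap-led cells, and 0.45 for Igfbp3 and 0.25 for Igfbp4 in Pcp4-led cells. Of the log2 ratios by class under alternatives, 644 others moved by less than the counting error and 223 by more. Igf2 in the Ptgds-led sub-cluster was 833 CPM with 10 components and 1388 to 1485 otherwise. No paired analysis was possible because the barcodes carry no replicate or library label and no test was made. Low counts limit Igf2, Igfbp3 and Igfbp4 outside fibroblast-like cells.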

Other observations

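Among the left-out barcodes with fewer than 500 genes (635, median 876 UMIs), Igfbp2 had 114 CPM and Igfbp5 380 CPM, against 40.3 and 817 CPM in kept cells, and Igf2 had 0 UMIs. In the 250 called doublets Igfbp5 had 733 CPM, Igfbp2 30.7 and Igf1r 56.8, and Igf2 had 1 UMI.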
